A study of Mus musculus with 2 samples.

Results

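Glul-high cells were described in 2 sections of mouse liver measured by MERFISH, in which repeated rounds of fluorescence imaging identify single RNA molecules of a chosen gene panel in place. A cell was counted as Glul-high when it held at least 3 Glul counts, had at least 10 gene counts and had a volume of at least 50. These limits picked 160 of 9209 kept cells in section 1, which is 1.74% (exact 95% interval 1.48 to 2.03), and 68 of 16290 in section 2, which is 0.417% (0.324 to 0.529). The 228 members were set against the 7342 and 14041 kept cells with no Glul count, called Glul-0 cells here, and 1707 and 2181 cells with 1 or 2 counts stood between. Both sections carry the same label apart from the replicate number, with a tag 2d that was not interpreted, so there was 1 group and every comparison lay within sections. The labels give liver as the tissue and name no strain, sex, age or treatment for either section. GEO's design text speaks of metastasis-bearing mice under 2 treatments, and nothing ties a section to either. Whether the sections came from separate animals is not stated. The fits take out the sections' own difference. Their p-values thus measure only how evenly differences between groups of cells repeated in these 2 sections, a spread that may be technical.

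Glul encodes glutamine synthetase, which joins ammonia and glutamate into glutamine. In normal liver the enzyme sits in a thin sleeve of hepatocytes around the central vein, where it takes up ammonia that the urea cycle upstream has left over. Wnt ligands from the central vein endothelium hold the pericentral programme, and Axin2 is a classical readout of that signal, while periportal hepatocytes carry urea cycle and gluconeogenic enzymes.

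The panel held 500 genes, and 50 blank barcodes that stand for no RNA gave the rate of false decoding. Segmentation gave 26037 and 85929 cells with 428386 and 475382 gene counts in sections 1 and 2. The Glul-high cells together held 17112 and 1701 counts of other genes, and the Glul-0 cells held 262946 and 250852. One count in the members' sum was therefore worth 0.584 per 10000 counts in section 1 and 5.88 in section 2, and a count of 0 allowed a level of up to 1.75 and 17.6 per 10000 (3 counts, counting error only). Section 2 is accordingly the shallow one for every value of Glul-high cells. The highest blank held 15 counts in the members of section 1 and 1 in those of section 2, and 172 and 125 of the other 499 genes exceeded it. Summed blanks stood at 45.6 and 11.8 per 10000 in Glul-high cells, against 74.0 and 33.5 in Glul-0 cells. No cell identifier was shared between the sections (0 cells).

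Most members lay close to the limit. Raw Glul was exactly 3 in 86 and 49 of them, 4 in 35 and 11, and 5 or more in 39 and 8, with a median of 3 in both sections and a highest value of 16 and 11. Of all Glul counts in kept cells, the members held 24.8% (section 1) and 8.95% (section 2). A further 9.50% and 40.6% of all Glul counts in cells lay in cells below the limits on counts and volume, so the members are a part of the Glul signal, a smaller one in section 2. These values come from the selection itself and carry no test. Just inside the limit, the cells with a Glul of 3 had medians of 68 and 17 other counts, against 57.5 and 16 in the 320 and 272 cells with a Glul of 2. Axin2 stood at 17 and 36.4 per 10000 in the cells with a Glul of 3, on 13 and 4 counts. In the cells with a Glul of 2 it stood at 13.2 and 13.8, on 32 and 8 counts. Cyp2e1 was level across the limit, at 48.4 and 72.7 against 45.8 and 72.5. Klf1 had 52.4 and 9.09 against 40.9 and 22.4, higher at a Glul of 3 in section 1 and lower in section 2.

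Glul-high cells were larger and, in section 1, much richer in RNA. Their median count of other genes was 75 against 24 in Glul-0 cells of section 1, and 17.5 against 15 in section 2. Their median volume was 1729 against 1085 and 1553 against 1248 (cubic µm, where the unit was assumed because the headers name none). Counts per 1000 of volume were 48.8 against 25.4 in section 1 and 13.8 against 13.2 in section 2, ratios of 1.92 and 1.05. A cell with more counts of everything reaches 3 Glul counts more easily, and the part of depth in the choice of members was not tested beyond the matched values given with the genes. The image stains differed little. DAPI per volume in Glul-high cells was 1.05 and 0.847 times that of Glul-0 cells, PolyT 1.01 and 0.960 times, and the other 5 channels lay between 0.891 and 1.05 times. The member with the most counts held 2.83% and 4.35% of its section's total, so no single cell carried the sums.

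The cells were not spread evenly. Glul-high cells neighboured each other more often than Glul-0 cells neighboured them, in both sections, and the excess faded with distance. In section 1, 158 of 2222 kept neighbours within 50 µm of a Glul-high cell were Glul-high (7.11%), against 1367 of 92557 around Glul-0 cells (1.48%). In section 2 the counts were 32 of 1457 (2.20%) around Glul-high cells and 1004 of 267175 (0.38%) around Glul-0 cells. Neighbours are counted from both ends and overlap, so these are shares without a test. With a limit of 5 or more Glul counts, 38 of 624 neighbours (6.09%) of such cells were themselves such cells in section 1 and 0 of 160 in section 2, against 0.372% and 0.0412% around Glul-0 cells. The 0 of 160 allows a share of up to 1.88%, so an excess in section 2 was not detectable at that limit.

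By rings, the share in section 1 was 8.45% within 25 µm, 6.38% from 25 to 50, 4.08% from 50 to 100, 2.42% from 100 to 200 and 1.98% from 200 to 400 around Glul-high cells. Around Glul-0 cells of section 1 it was 1.31%, 1.57%, 1.70%, 1.70% and 1.85% in the same rings. The curves met in the outermost ring. In section 2 the shares around Glul-high cells were 2.60%, 2.05%, 1.09%, 0.57% and 0.49%, and those around Glul-0 cells 0.34%, 0.39%, 0.41%, 0.43% and 0.41%. The level was lower in section 2, and the shape was alike: highest in the innermost ring and close to the surroundings past 200 µm.

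**Figure D1:**
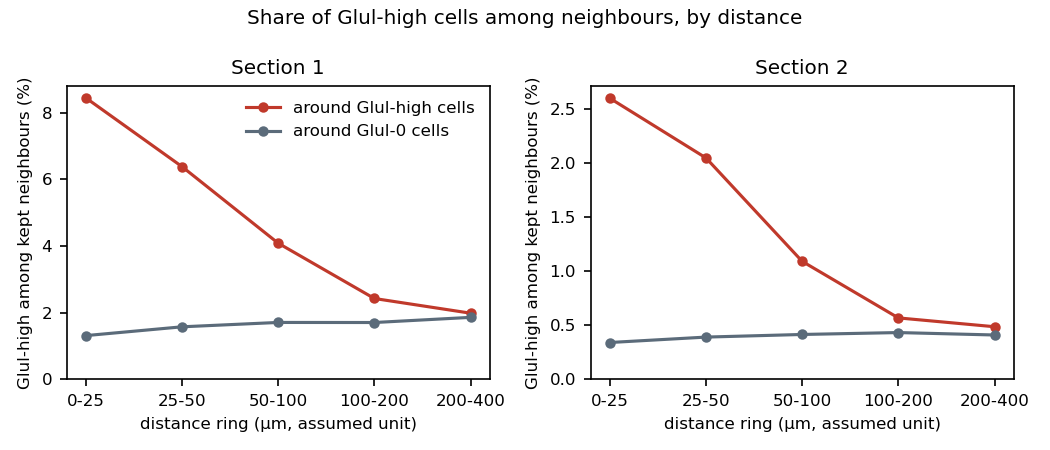
Percent of kept neighbours that were Glul-high (vertical axis) by ring of distance in µm (horizontal axis), around Glul-high cells (red) and around Glul-0 cells (grey), 1 panel per section with its own scale. Around Glul-high cells the share falls off with distance, to 1.98% and 0.49% in the outermost ring, while around Glul-0 cells it stays between 1.31% and 1.85% in section 1 and between 0.34% and 0.43% in section 2.

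The nearest other Glul-high cell lay at a median of 72.1 µm from a Glul-high cell in section 1, against 140 µm from a Glul-0 cell. In section 2 these medians were 99.4 and 238 µm. Another Glul-high cell lay within 50 µm of 70 members (43.8%) in section 1 and of 20 (29.4%) in section 2, against 13.4% and 6.0% of Glul-0 cells. Members had medians of 11 and 19 other kept cells within 50 µm, against 10 and 17 for Glul-0 cells. Over all segmented cells the medians were 15 and 51 around members, against 20 and 48. The part of local density in the neighbour shares was not tested.

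Compact clumps were few. Joining Glul-high cells less than 30 µm apart gave 4 clumps of 3 or more cells in section 1, with 8, 4, 4 and 3 cells, 19 of the 160 members in all (11.9%), beside 14 pairs and 113 single cells. Section 2 had 0 such clumps, 6 pairs and 56 single cells. The clump of 8 cells spanned 67.7 µm and held 46 Glul counts, with 15 counts of Gulo, 7 of Cyp2e1, 2 of Axin2, 0 of Cyp2f2 and 1 of Klf1 among 429 other counts. The other 3 clumps spanned 28.1 to 33.4 µm. One of them, with 4 cells, 16 Glul counts and 328 other counts, held no count of Axin2 or Cyp2e1, with 1 count of Gulo, 2 of Cyp2f2 and 3 of Klf1. On a coarser scale, 42 of 62 squares of 500 µm with at least 20 kept cells held a member in section 1, and 32 of 68 in section 2. In each section 8 squares held 50% of the members, which is 12.9% and 11.8% of the squares. When joined at 50 µm instead, 90 and 48 members were still single. The map shows mostly single members, with a few small groups among them.

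**Figure D2:**
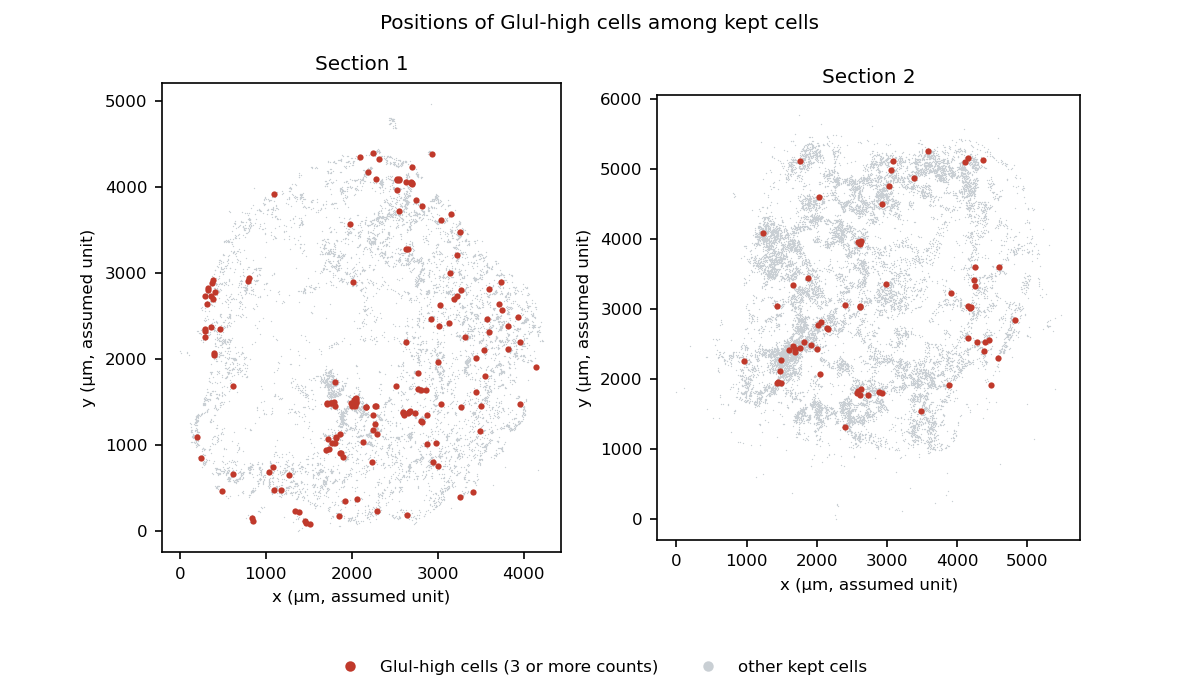
Positions of the 160 and 68 Glul-high cells (red) among the other kept cells (grey) in section 1 and section 2, with x and y in µm from each section's lowest value (unit assumed from the sizes of cells). Most members are single cells, with a few small groups, and large areas of both sections have few kept cells of any kind.

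Glul outside the members followed the same positions. Cells that the limits on counts or volume left out were binned by distance to the nearest Glul-high cell. The bins were within 25, 25 to 50, 50 to 100, 100 to 200 and 200 µm or more. In these cells Glul stood at 285, 136, 109, 53.3 and 64.5 per 10000 gene counts in section 1. In section 2 the same bins had 404, 305, 184, 113 and 79.9. The nearest bin held 19 and 69 Glul counts in 133 and 411 of these cells. Transcripts assigned to no cell had 157, 121, 79.6, 63.5 and 66.5 Glul per 10000 in section 1 and 251, 204, 120, 86.6 and 63.8 in section 2.

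The decline was thus seen in both sections and in molecules that the choice of members did not use. Kept cells with 0 to 2 Glul counts also declined, with 96.5 Glul per 10000 in the nearest bin against 44.6 in the farthest in section 1, and 211 against 68.1 in section 2, although the choice caps Glul in these cells. Transcripts in no cell close to a member may be that cell's own, outside its drawn border, and the 2 sources cannot be told apart here.

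**Figure D3:**
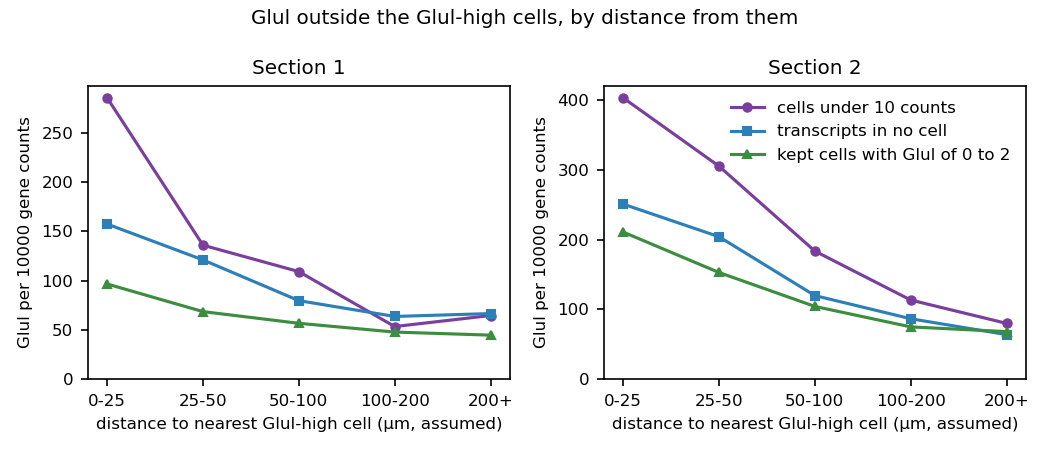
Glul per 10000 gene counts (vertical axis) by distance to the nearest Glul-high cell in µm (horizontal axis), 1 panel per section. Circles are cells below the limits on counts or volume, labelled as under 10 counts. Squares are transcripts in no cell, and triangles are kept cells with 0 to 2 Glul counts. All 3 sources are highest within 25 µm, at 96.5 to 285 in section 1 and 211 to 404 in section 2.

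The gene by gene comparison asked which other genes differed between Glul-high and Glul-0 cells. One gene rose, Axin2, and 3 fell, Klf1, Rab17 and Eps8l3. Axin2 and Klf1 had the same direction in both sections. Rab17 and Eps8l3 had 0 counts in Glul-high cells of section 2, where a count of 0 allows more than their Glul-0 level, so section 2 shows no direction for them. That is 4 of the 424 genes tested, or 0.943%, by edgeR's quasi-likelihood test on counts summed per section and Glul class, with section as a block and an adjusted p under 0.05 after Benjamini-Hochberg adjustment. A further group of genes moved without passing, and 48 genes had an unadjusted p under 0.05. The test had 2 residual degrees of freedom, and it made no call with DESeq2 or without the section block (0 genes each, with 14 and 10 genes at an unadjusted p under 0.05), nor in cells with at least 20 counts (0 genes, 33 unadjusted).

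The scale of the comparison matters for signs. The median log2 change of all 424 genes, Glul-high minus Glul-0, was -0.22 with TMM scaling, -0.06 with library size alone and 0.57 per cell volume. The split of called genes moved with it, at 1 higher and 3 lower with TMM, 2 higher and 1 lower with library size alone, and 4 higher and 0 lower per volume. Changes below are relative to the TMM scale, and a value above -0.22 is above the median gene. On that scale 162 of the 424 genes lay above 0, 38 of them in both sections. The other 262 lay below 0, 198 of them in both sections. In the members of section 2, 279 of the 499 genes other than Glul had 0 counts. A count of 0 there puts a gene below 0 in that section when Glul-0 cells hold it. The number below 0 in both sections thus rests in part on counts of 0.

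Axin2, an inhibitor and feedback target of Wnt signalling, had 25.7 per 10000 counts in Glul-high cells of section 1 and 41.2 in those of section 2, against 8.75 and 6.54 in Glul-0 cells. Both Glul-high values lay above both Glul-0 values, and they rest on 44 and 7 counts in 28 and 7 cells. The log2 change was 1.61 (SE 0.37, adjusted p = 0.00294, edgeR), with 1.5 in section 1 and 1.88 in section 2. In cells with 1 or 2 Glul counts Axin2 stood at 9.78 and 8.08 per 10000, between the classes in both sections. Over 14 alternative settings its log2 change ran between 0.98 and 2.48, with adjusted p between 2.47e-05 and 0.997, and it passed in 8. Against only those Glul-0 cells that lay within 50 µm of a member the log2 change was 0.98 (adjusted p = 0.527), and in cells matched to 20 to 59 other counts it was 1.15 (adjusted p = 0.553, 6 Axin2 counts in 52 and 27 members).

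The Wnt list, which collects ligands, receptors, effectors and targets, had 12 genes on the panel, all tested, of which 1 rose and 0 fell. Its median log2 change was 0.08, with 6 members above 0 and 6 below, beside -0.22 over all genes. The sign of this list's members moved with scaling, to 8 above and 4 below with library size alone and 10 above and 2 below per volume. Lgr5, the R-spondin receptor of pericentral cells, had 4.67 per 10000 in Glul-high cells of section 1 and 0 counts in those of section 2, against 1.75 and 1.04 in Glul-0 cells (log2 change 1.18, SE 0.66, adjusted p = 0.439). Tcf7, a transcription factor of the pathway, had 7.01 and 5.88 per 10000 in Glul-high cells, against 4.07 and 1.83 (0.80, SE 0.52). Tbx3, a target that represses the periportal programme, had 3.51 and 11.8 against 2.85 and 2.71 (0.50, SE 0.61), and Lef1 had a log2 change of 0.19 (SE 0.84). None of these passed.

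The co-receptors Lrp5 and Lrp6 had log2 changes of -0.38 (SE 0.59) and -0.75 (SE 0.42), and Axin1 one of -0.07 (SE 0.40). Wnt4, a ligand, had 5.84 and 5.88 per 10000 in Glul-high cells, against 4.98 and 36.8 in Glul-0 cells. It was level in section 1 and lower in section 2, where the Glul-high value is 1 count (log2 change -0.96, SE 0.55). Ccnd1, the cell cycle cyclin D1, had a log2 change of -0.02 (SE 0.48), and Sox9, a bile duct transcription factor, one of -1.76 (SE 0.76, adjusted p = 0.319), on 3 and 0 counts in Glul-high cells. Of the 6 genes listed as markers of central vein endothelium, Wnt2 and Kit were on the panel and Rspo3, Wnt9b, Thbd and Cdh13 were not. Wnt2 had 8.18 per 10000 in Glul-high cells of section 1 and 0 counts in section 2, against 4.91 and 3.39 in Glul-0 cells (0.52, SE 0.50), and Kit had 9.35 and 0 against 6.39 and 1.91 (0.40, SE 0.48). With these genes the closeness of the members to a central vein could not be checked.

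Pericentral hepatocyte genes were mostly higher in Glul-high cells without passing the test. Of 12 tested genes of this list (13 on the panel), 0 were called, 10 had a log2 change above 0, 9 of them in both sections, and the median was 0.96, against -0.22 over all genes. The same list had 11 above 0 with library size alone and 12 per volume. Its summed level was 275 and 453 per 10000 in Glul-high cells, against 175 and 234 in Glul-0 cells, so both sections had the higher sum in Glul-high cells. Cyp2e1, the ethanol-metabolising cytochrome P450, had 63.7 and 105.8 per 10000 in Glul-high cells, on 109 and 18 counts, against 29.7 and 33.6 in Glul-0 cells. The log2 change was 1.0 (SE 0.33, adjusted p = 0.140, edgeR). On the TMM scale the sections were close to each other, at 1.06 and 0.90. In the levels above, before scaling, the rise was larger in section 2, so the scaling lowered that section's change more. Over the alternatives the value lay between 0.72 and 1.85, with adjusted p between 0.00563 and 0.997, and Cyp2e1 passed in 3 of 14.

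Gulo, the last enzyme of ascorbate synthesis, had 98.8 and 105.8 per 10000 in Glul-high cells, against 60.8 and 49.3 in Glul-0 cells. Its log2 change was 0.57 (SE 0.32, adjusted p = 0.439). In cells matched to 20 to 59 other counts the levels were 183 and 128 in 52 and 27 Glul-high cells, against 60.2 and 50.9 in Glul-0 cells, and there Gulo passed (adjusted p = 0.00554, its lowest of 14 alternatives, which reached 0.997). In the same matched cells Cyp2e1 had 67.8 and 96.2 per 10000, against 27.0 and 31.1. Cyp2e1 did not pass there (adjusted p = 0.121), and Axin2 and Rab17 lost their calls in the same cells.

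Rnase4 and Ang, secreted ribonucleases, had log2 changes of 1.05 (SE 0.44) and 1.5 (SE 0.85). Rnase4 stood at 11.1 and 29.4 per 10000 in Glul-high cells, against 6.12 and 4.94. Cyp7a1, which starts the conversion of cholesterol to bile acids, had 19.3 and 29.4 per 10000, against 11 and 6.26 (0.92, SE 0.40, adjusted p = 0.319). Cyp1a2, a xenobiotic-metabolising P450, had 4.68 and 5.88 against 2.09 and 2.67 (1.01, SE 0.60). Oat, which makes glutamate from ornithine and so supplies glutamine synthetase, had 10.5 and 11.8 against 5.86 and 5.46 (0.76, SE 0.46). In both sections each of these genes was higher in Glul-high cells, with 1 to 5 counts in the shallow section. Lect2 (0.74), Lhpp (1.26) and Gstm3 (1.19) also lay above 0, on sums of 13, 8 and 5 counts over the Glul-high cells of both sections, and Gstm3 had none in section 2.

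Gstm1, a glutathione transferase, and Por, the reductase that feeds the cytochromes P450, went the other way. Gstm1 had 4.09 and 88.2 per 10000 in Glul-high cells, against 8.71 and 56.8 in Glul-0 cells, so the sections ran opposite ways before scaling. The log2 change was -0.53 (SE 0.45), and it was 0.36 per volume. Por had 47.3 and 47.0 against 43.7 and 63.8 (-0.24, SE 0.35), and its sign turned to 0.03 with library size alone and to 0.52 per volume.

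**Figure D4:**
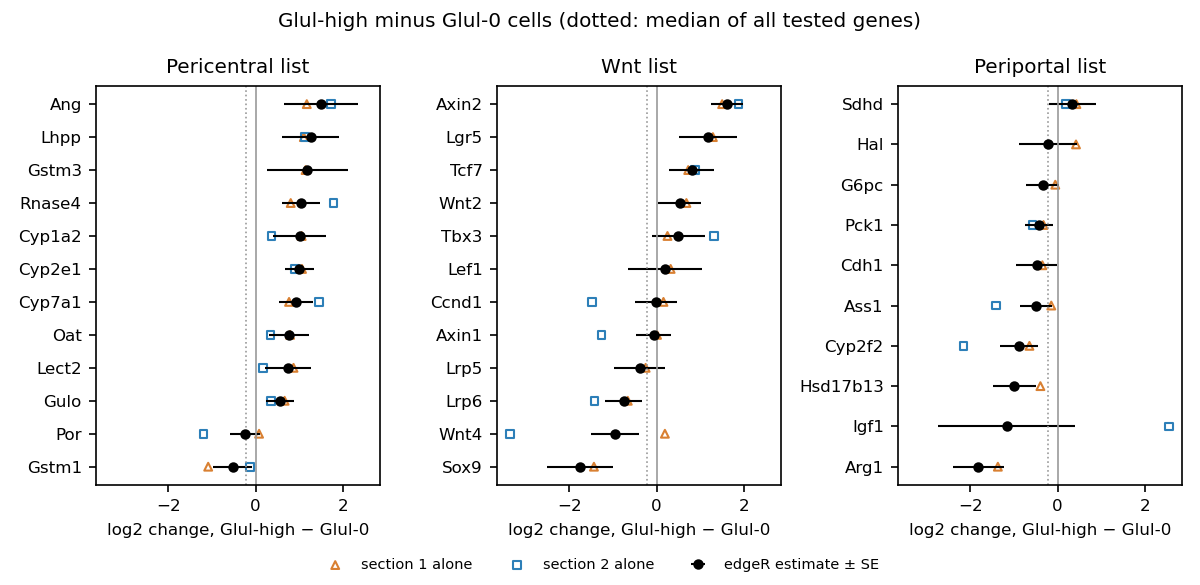
Log2 change of each tested gene of the pericentral, Wnt and periportal lists, Glul-high minus Glul-0 (horizontal axis), as the edgeR estimate with its SE (black) and in section 1 (triangles) and section 2 (squares) alone, where a section with 0 counts in Glul-high cells has no symbol. The dotted line is the median of all tested genes, -0.22. In the pericentral panel 10 of 12 estimates lie above 0, and in the periportal panel 9 of 10 lie below.

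Periportal genes were mostly lower relative to the TMM scale, again without a call. Of 10 tested genes 0 were called, 1 lay above 0 and 9 below, 7 of them below 0 in both sections, with a median of -0.49 against -0.22 over all genes. Over all 424 genes 262 lay below 0, 198 of them in both sections. In section 2, 5 of the 10 periportal genes had 0 counts in Glul-high cells, where a 0 allows up to 17.6 per 10000. The agreement between sections thus rests in part on counts of 0. The direction did not hold on every scale: 8 of 10 lay below 0 with library size alone and 4 of 10 per volume. Their summed level was 182 and 176 per 10000 in Glul-high cells, against 221 and 261 in Glul-0 cells. Arg1, the last enzyme of the urea cycle, had 4.67 per 10000 in Glul-high cells of section 1, on 8 counts, and 0 counts in section 2, against 12.1 and 21.5 in Glul-0 cells. Its log2 change was -1.82 (SE 0.58, adjusted p = 0.126, edgeR), and over 14 alternatives the adjusted p lay between 0.0387 and 0.997. Cyp2f2, the classical periportal cytochrome P450, had 15.8 and 5.88 per 10000, on 27 counts and 1 count, against 24.3 and 16.0 (-0.88, SE 0.43, adjusted p = 0.361).

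Hsd17b13, a lipid droplet enzyme, had 8.77 and 0 per 10000 in Glul-high cells, against 11.3 and 29.0 (-1.0, SE 0.49). The gluconeogenic genes Pck1 and G6pc had log2 changes of -0.42 (SE 0.33) and -0.34 (SE 0.38). Pck1 stood at 74.2 and 105.8 per 10000 against 90.9 and 93.5, which is lower in one section and higher in the other before scaling. Ass1, of the urea cycle, had 25.7 and 35.3 against 27.8 and 55.5 (-0.50, SE 0.37), and Hal, which degrades histidine, had 3.51 and 0 against 2.51 and 7.33 (-0.22, SE 0.66). Cdh1 (-0.48), Igf1 (-1.17, 1 count in all) and Sdhd (0.34) filled the list. Pck1, G6pc, Ass1, Hal and Cdh1 turned to values above 0 per volume.

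Klf1, the erythroid transcription factor, had 37.4 and 5.88 per 10000 in Glul-high cells, on 64 counts and 1 count, against 94.3 and 50.9 in Glul-0 cells. Both Glul-high values lay below both Glul-0 values. The log2 change was -1.67 (SE 0.38, adjusted p = 0.00294, edgeR), with -1.36 in section 1 and -3.82 in section 2. That gap rests on the 1 count and in part on the TMM scaling. It passed in 7 of 13 alternatives, with log2 changes from -2.33 to -0.71 and adjusted p from 1.00e-06 to 0.997. Against Glul-0 cells within 50 µm the log2 change was -0.71 (adjusted p = 0.601), and per volume it was -0.98 (adjusted p = 0.308).

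Of the 5 tested genes of the erythroid list 1 fell, and 2 lay above 0 and 3 below (median -0.48; 3 above and 2 below per volume). The others did not pass. Among them the log2 change was -1.01 (SE 0.41) for Epor, the erythropoietin receptor, -0.48 for Cd24a and 0.00 for Car2. The remaining gene of the list, not named here, lay above 0. The list's summed level was 175 and 41.2 per 10000 in Glul-high cells, against 262 and 124 in Glul-0 cells. Rab17, a small GTPase of epithelial membrane traffic, had 4.09 per 10000 on 7 counts in Glul-high cells of section 1 and 0 counts in section 2, against 18.3 and 14.7 in Glul-0 cells (log2 change -2.32, SE 0.58, adjusted p = 0.00990, edgeR). It was lower in section 1, and in cells matched to 20 to 59 other counts its levels were 20.9 and 0 in Glul-high cells, against 16.6 and 10.9, with a log2 change of -0.27 (adjusted p = 0.940; 0.00381 to 0.997 over 14 alternatives). Eps8l3, of the EPS8-like family, had 0 counts in Glul-high cells of both sections, against 64 and 351 counts in Glul-0 cells. Taking 3 counts as the floor over both sections it was at least 2.18-fold lower (adjusted p = 0.0316, edgeR), where 6.55 counts would stand at the Glul-0 level. Neither Rab17 nor Eps8l3 exceeded the highest blank in the members of either section.

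Genes of all hepatocytes were slightly lower relative to the TMM scale. All 12 tested genes of that list had a log2 change below 0, 11 of them in both sections, with 0 called and a median of -0.43. Of all 424 genes, 262 lay below 0, 198 of them in both sections. With library size alone 9 of 12 lay below 0, and per volume 0 of 12 did. Their summed level was 3377 and 5373 per 10000 in Glul-high cells, against 3832 and 5106, so section 2 ran the other way before scaling. Hp, the plasma protein haptoglobin, had 707 and 1564 per 10000 in Glul-high cells, against 809 and 1648 (-0.52, SE 0.20, adjusted p = 0.244). Counts of hepatocyte genes were present in nearly all members: Hp alone was counted in 144 of 160 and 61 of 68 of them. Hp was abundant in Glul-0 cells too, and their share with a count is not given, so this does not set the members apart. Lists of clotting factors (5 genes, median -0.49), cell cycle (4 genes, -0.22) and glycolysis (3 genes, -0.01) held 0 called genes.

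Markers of other cell types were also present, and differed between the sections. Endothelial markers (7 of 7 on the panel tested, 0 called, median 0.69) summed to 146 and 41.2 per 10000 in Glul-high cells, against 75.3 and 44.0 in Glul-0 cells. Kdr, Lyve1 and Vwf were at 0 counts in the members of section 2. The endothelial genes Cdh5, Tek and Oit3 were among the 21 genes called with a Glul of 5 or more (10 higher, 11 lower). That limit left 39 and 8 members. Macrophage markers (5 tested, 0 called, median 0.55) summed to 122 and 23.5, against 59.4 and 49.5, with Cd68 and Mrc1 at 0 in section 2. Mesenchymal markers (5 tested, 0 called, median 0.44) summed to 274 and 94.1, against 184 and 137, with Pdgfra at 0 in section 2.

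All 3 sums were thus higher in Glul-high cells of section 1 and lower in those of section 2. Within the mesenchymal sum, 90 of the 407 Col1a1 counts in members of section 1 came from a single cell. Monocyte and neutrophil markers (7 tested, median -0.10) summed to 101 and 41.2 against 90.9 and 43.6, and B lineage markers (3 tested, median -0.94) to 12.9 and 11.8 against 18.6 and 7.69. Cholangiocyte markers summed to 5.26 per 10000 in section 1, against 9.96, and all 5 on the panel were at 0 in members of section 2, against 7.45. Members with no count of any of these markers numbered 21 of 160 (13.1%) and 48 of 68 (70.6%), against 36.6% and 67.1% of Glul-0 cells. In those cells alone 5 of 284 tested genes were called, Axin2 higher at 2.08 and F2, Fga, Hp and Igfbp2 lower (chosen by the call in that setting), and Cyp2e1 had 0.94. The median log2 change over these 284 genes was -1.12, so most genes lay well below 0 there. The members' sums in that setting held only 983 and 1047 other counts. The share of RNA from overlapping cells in these sums was not measured.

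The promoters of Glul and of the 2 pericentral readouts with the clearest values are shown because these genes are commonly described as Wnt-responsive or pericentral. They are the 250 bases before the RefSeq gene start in GRCm38.p6, read 5′ to 3′ on the + strand, at chr1:153899679-153899928 for Glul, chr11:108920099-108920348 for Axin2 and chr7:140763569-140763818 for Cyp2e1. Capitals mark CTTTG or its reverse complement CAAAG, the core that TCF and LEF factors bind, searched on both strands.
Glul: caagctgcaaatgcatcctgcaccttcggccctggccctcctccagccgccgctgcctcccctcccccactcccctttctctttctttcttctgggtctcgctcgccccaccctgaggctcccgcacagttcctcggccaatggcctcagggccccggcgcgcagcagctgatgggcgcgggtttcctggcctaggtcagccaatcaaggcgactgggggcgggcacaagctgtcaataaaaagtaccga
Axin2: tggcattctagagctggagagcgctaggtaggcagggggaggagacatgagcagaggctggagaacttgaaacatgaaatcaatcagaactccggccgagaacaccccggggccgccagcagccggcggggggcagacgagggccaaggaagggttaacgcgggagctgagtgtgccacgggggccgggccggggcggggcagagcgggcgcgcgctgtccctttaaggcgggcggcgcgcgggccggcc
Cyp2e1: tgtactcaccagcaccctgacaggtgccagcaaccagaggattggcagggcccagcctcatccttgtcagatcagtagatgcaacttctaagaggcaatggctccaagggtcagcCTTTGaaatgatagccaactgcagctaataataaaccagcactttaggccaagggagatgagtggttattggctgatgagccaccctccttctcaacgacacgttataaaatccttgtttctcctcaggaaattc
The letters occurred in 1 place before Cyp2e1 and in none before Glul or Axin2, and 48.6% of all 32851 promoters of this length in the table hold them at least once. A match is a stretch of letters, not a site, and no match speaks only of this window.

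A second comparison asked whether cells without any Glul count differ near the members. It set Glul-0 cells less than 50 µm from a Glul-high cell (985 and 842 cells) against Glul-0 cells at 100 µm or more (4891 and 11585). One gene was higher near members, Col1a1, and 2 were lower, Eps8l3 and Klf1, which is 3 of 404 tested genes, or 0.743% (edgeR, adjusted p under 0.05), with the same direction in both sections. The Glul-0 cells are shared with the comparison above, so the values below stand beside those and add no separate evidence. Near cells had a median of 29 and 15 other counts, against 22 and 15, and a median volume of 1001 and 1151, against 1101 and 1261. Over all 404 genes, 167 had a log2 change above 0 and 237 below, with a median of -0.06.

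Col1a1, the collagen chain of fibrous matrix, had 343 and 174 per 10000 in near cells, against 133 and 114 in far cells. The log2 change was 1.09 (SE 0.17, adjusted p = 0.0219, edgeR), with 1.41 and 0.66 in the sections. It passed in 4 of 11 alternatives, with adjusted p from 9.85e-10 to 0.999, and when the members were cells with a Glul of 2 or more the log2 change was -0.26. By bins the level was 381, 319, 119, 126 and 140 per 10000 in section 1, from within 25 µm to 200 µm or more, and 106, 199, 107, 83.8 and 126 in section 2. The higher values lay within 50 µm in section 1 and between 25 and 50 µm in section 2. Col3a1, another fibrous collagen, named after its values were seen, had 30.1 and 17.3 in near cells, against 12.6 and 13.3 (0.98, SE 0.24, adjusted p = 0.133). Of the 5 tested mesenchymal markers 1 rose, 3 lay above 0 and 2 below, with a median of 0.33. Hgf, a growth factor, had a log2 change of 0.33 (SE 0.36), Acta2, smooth muscle actin, one of -0.03 (SE 0.49), and Pdgfra, a growth factor receptor, one of -0.11 (SE 0.49).

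Klf1 had 55.8 and 12.3 per 10000 in near cells, against 111 and 59 in far cells (log2 change -1.39, SE 0.25, adjusted p = 0.0271, edgeR). By bins it stood at 47.5, 60.9, 72.4, 79.7 and 148 in section 1 and at 6.93, 14.3, 18.3, 33.0 and 70.0 in section 2. Each step outward was higher in both sections. All 5 tested erythroid markers lay below 0 in near cells (3 of 5 per volume), 1 of them called, with a median of -0.29 against -0.06 over all genes, and the part of erythroid cells in the Klf1 value was not tested. Eps8l3 had 1 and 0 counts in near cells, against 59 and 350 in far cells. That is 0.0242 times the count expected at the far level (95% exact Poisson interval 0.000614 to 0.135, counting error only; adjusted p = 0.0219, edgeR). No call was made in this comparison with library size alone (0 genes, 38 at an unadjusted p under 0.05), per volume (0, 67 unadjusted) or without the section block (0, 3 unadjusted), and DESeq2 called Col1a1 alone.

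Of the 12 tested pericentral genes 0 were called in near cells and 9 lay above 0 (11 per volume), with a median of 0.19 against -0.06 over all genes. Gulo had 69.3 and 82.6 per 10000 in near cells, against 56.6 and 45.4 (log2 change 0.60, SE 0.15, adjusted p = 0.133), and Cyp2e1 had 33.0 and 48.7 against 27.4 and 30.5 (0.51, SE 0.16, adjusted p = 0.410). Oat (0.82), Rnase4 (0.99) and Lect2 (0.76) were above 0 in both sections, and none passed. The difference between these values and those of the members was not tested. In the Wnt list 6 of 12 genes lay above 0 and 6 below, with 0 called and a median of 0.04. Axin2 of that list had 10.6 and 15.4 per 10000 in near cells, against 8.14 and 5.75 (0.88, SE 0.30, adjusted p = 0.410).

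Of 9 tested periportal genes 0 were called and 8 lay below 0, 4 per volume, with a median of -0.26. Cyp2f2 had 26.2 and 6.78 in near cells, against 26.4 and 17.8, so it was level in section 1 and lower in section 2. Hal had a log2 change of -1.14 (SE 0.51) and Pck1 one of -0.26 (SE 0.13). Endothelial (7 of 7 above 0, median 0.44) and macrophage markers (5 of 5, 0.39) lay above 0 on each of the 3 scales with 0 called, and the part of these neighbouring cells in the collagen value was not tested.

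**Figure D5:**
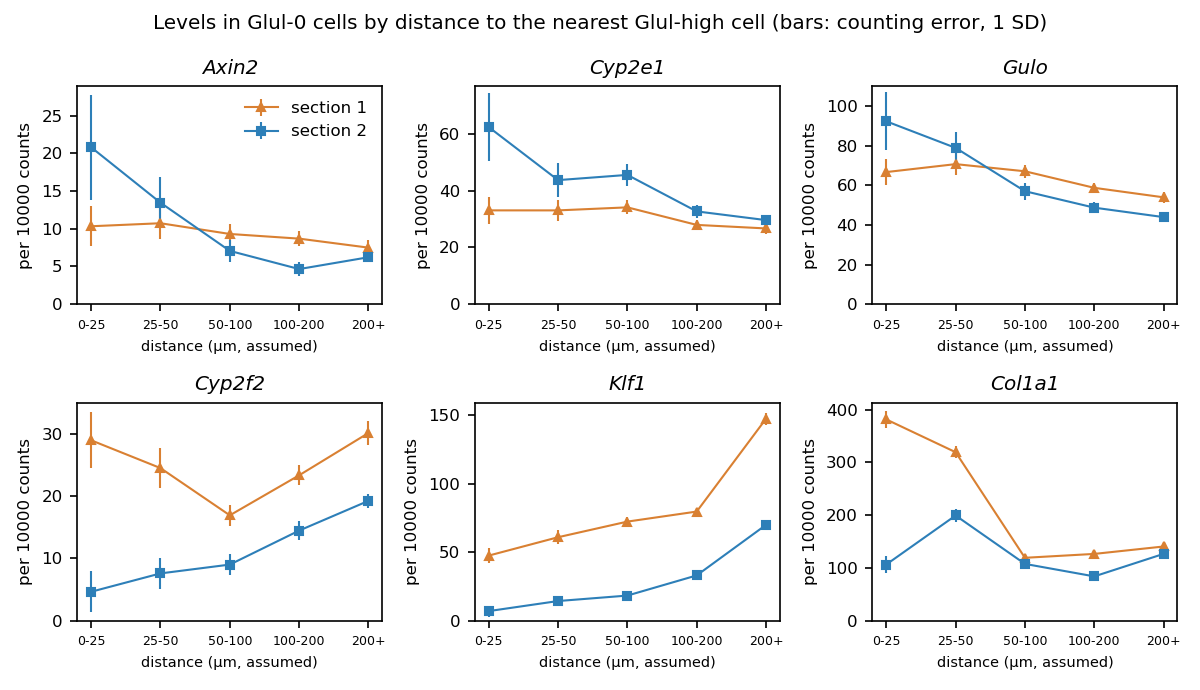
Level per 10000 counts (vertical axis) of Axin2, Cyp2e1, Gulo, Cyp2f2, Klf1 and Col1a1 in Glul-0 cells by distance to the nearest Glul-high cell in µm (horizontal axis), in section 1 (triangles) and section 2 (squares), with bars for the counting error of 1 SD. In section 2, Axin2 stands at 20.8 within 25 µm and 6.22 at 200 µm or more, in section 1 at 10.3 and 7.49. Klf1 climbs outward in both sections.

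The last comparison set members against each other. Clumped members, with at least 2 other Glul-high cells within 50 µm, numbered 31 and 8, against 129 and 60 lone members. The clumped cells held 2711 and 178 other counts, so section 2 adds almost nothing to this comparison. Thbs1, Cd24a and E2f2 were lower in clumped members and none was higher, which is 3 of 424 genes, or 0.708% (edgeR, adjusted p = 0.0240 for each). The median log2 change over all genes was -0.43, with 269 of 424 below 0. The other marker lists did not all move alike. All 5 erythroid genes, the called Cd24a among them, all 3 B lineage and all 4 cell cycle genes lay below 0. So did 5 of 7 monocyte and neutrophil, 4 of 5 macrophage, 4 of 5 mesenchymal and 2 of 3 cholangiocyte markers. Endothelial markers went the other way, with 5 of 7 above 0 (median 0.66). These counts were the same on each of the 3 scales. Clumped members were also smaller, with median volumes of 1276 and 1418 against 1805 and 1576, and held medians of 61 and 16.5 other counts, against 79 and 18. The part of these differences in the calls was not tested.

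Cd24a, a surface glycoprotein of erythroid precursors and other cells, had 7.38 and 0 per 10000 in clumped members, against 82.6 and 13.1 in lone ones. Its 2 counts were 0.0884 times those expected at the lone level (95% exact Poisson interval 0.0107 to 0.319, counting error only), with a log2 change of -3.51 (SE 0.88). E2f2, a cell cycle transcription factor, had 18.4 per 10000 in clumped members of section 1, against 115 (-2.61, SE 0.67), and 0 counts in any member of section 2, so its value is that of section 1. Thbs1, a secreted matrix glycoprotein, had 0 counts in clumped members of both sections, against 58 and 4 counts in lone ones, and was at least 3.80-fold lower at the floor of 3 counts over both. Up to 15, 16 and 8 counts of Cd24a, E2f2 and Thbs1 came from 1 member of section 1. With DESeq2, per volume or without the section block no gene passed (0 each, with 19, 40 and 18 genes at an unadjusted p under 0.05). Axin2 had 48.0 and 112 per 10000 in clumped members, against 21.5 and 32.8 in lone ones, on 13 and 2 counts, and did not pass (1.08, SE 0.53, adjusted p = 0.420). Cyp2e1 and Gulo had log2 changes of 0.49 (SE 0.44) and 0.43 (SE 0.40), with no difference shown between clumped and lone members.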

How the data were processed

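The 2 replicate sections were cut as 10-µm slices from snap frozen liver and imaged by MERFISH, per the labels' protocols. Per cell and gene the authors deposited whole, unnormalized counts. The deposited cell tables give positions, volumes and a summed image signal per stain, which is a brightness intensity, and the deposited transcript lists give each molecule's position and cell. The decoding and segmentation software is not given in the sources used here. The headers name no length unit, and µm was assumed. All count columns were checked to be whole numbers.

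Counts were summed per section and class, with blanks and Glul left out, and tested with edgeR 4.0.16 (R 4.3.3; glmQLFit and glmQLFTest, TMM, section as block, genes with at least 50 counts, Benjamini-Hochberg threshold 0.05); the code was tested on simulated data. Distances used Python 3.11.15 and scipy 1.17.1. No doublet caller was run. The genes named were every tested gene of the pericentral, periportal, Wnt and central endothelium lists and, among called genes with 1 direction in both sections, up to 10 in each direction for the first comparison and up to 5 for the others. E2f2, at 0 in section 2, was added after its values were seen, as were genes of other lists named with their counts. The members, lists and tests were chosen with earlier results of these data known. Alternatives changed the scaling, tool (DESeq2 1.42.0), filters, block, limits on cells and Glul, and distances.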

Additional observations from a re-analysis of the deposited data

How the results depend on the processing

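Counts of called genes depended strongly on the setting. Between Glul-high and Glul-0 cells, where 4 genes were called, 0 were called with DESeq2, without the replicate block, in cells with at least 20 counts and with only the Glul-high and Glul-0 sums in the fit (9 at an unadjusted p under 0.05); 1 was called against Glul-0 cells within 50 µm, 10 with a Glul of 2 or more and 21 with a Glul of 5 or more. Between near and far Glul-0 cells, where 3 were called, 0 were called with library size alone, without the replicate block, per cell volume, in cells with at least 20 counts (15 unadjusted), in cells with no other cell type's marker (21 unadjusted) and by distance to clumped members (38 unadjusted); DESeq2 called 1 and a Glul of 2 or more 6. Between clumped and lone members, where 3 were called, 0 were called with DESeq2, without the replicate block, per cell volume and in cells with no other marker (2 unadjusted), and 1 with at least 1 other member within 50 µm. Cells with no other marker hold no Col1a1, Klf1 or Cd24a by their choice, so these genes could not be called in them. Clumping at 2 others within 30 µm could not be fitted, since section 2 had no such cell, and leaving out a section left no test. The share of Glul-high cells within 50 µm of members averaged 4.65% ± 3.48 (SD, n = 2 sections); it was 9.15% with a Glul of 2 or more, 3.04% with 5 or more (0% in section 2), and 2.20% to 7.11% with a section left out. Members in clumps of 3 or more averaged 5.94%, against 18.0% when joined at 50 µm, and 0% to 11.9% with a section left out. Among genes called in either setting, the values that turned sign were Col1a1 near members to -0.26 with a Glul of 2 or more, and Thbs1 in clumped members to 0.19 in cells with no other marker. Clumped members held 0 counts of Thbs1, so that 0.19 is a fitted value on a sum of 0 and shows no rise. A further 104 values of genes called in neither setting changed sign, Por and Gstm1 among them. The causes were not tested. Apart from the 2 reversed values of called genes, 700 gene values stayed within their error or call, 204 moved, 67 lost a call and 8 gained one. The 104 values are counted among these. Depth limits the members of section 2, where 1 count is worth 5.88 per 10000.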
